A study of Mus musculus with 36 samples.

Results

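Plakophilin 4 (PKP4) is a member of the p120-catenin family, proteins with armadillo repeats that sit under the plasma membrane where neighbouring epithelial cells adhere. Keratinocytes are the epithelial cells of the epidermis. In low calcium medium (LCM) the extracellular domains of cadherins do not bind each other stably, and the cells grow as basal-type cells with few mature junctions. Added calcium (HCM) starts junction assembly and differentiation. The comparison described here set Rescue cells against WT cells after 24 h in LCM, the condition before junctions are induced.

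Its members were chosen by the labels of the deposited libraries: the 3 Rescue and the 3 WT libraries of 24 h LCM, 6 of the 36 libraries of the series. WT cells are murine keratinocytes with intact Pkp4, isolated from newborn mice. Rescue cells are keratinocytes with a knockout of Pkp4 (Pkp4-/-, PKP4-KO) that overexpress human PKP4 fused to GFP (GFP-PKP4) from a lentiviral vector with puromycin selection, so that they carry the knockout alleles as well. The Rescue cells were a selected stable line, the WT cells were not transduced, and no library of WT or PKP4-KO cells with GFP alone was analysed here. Genotype, cell line, selection and the animals of origin therefore change together between the groups and cannot be told apart in this comparison. The 3 PKP4-KO libraries of 24 h LCM are given beside the results as levels. The series describes its libraries as biological replicates. Its other groups are the same 3 cell types at 24 h HCM, 72 h LCM and 72 h HCM.

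The total count per library was 13602728, 14284649 and 15678952 in WT and 17794764, 20257911 and 14799229 in Rescue. Of the 55358 genes listed, 23574 had reads in these libraries and 15114 passed the filter on low counts. Levels are given as CPM, counts relative to the library total, scaled with TMM factors and in the order of replicates 1 to 3. The floor of 3 counts came to 0.124 to 0.196 CPM in these libraries and covers counting error only. All 10 keratinocyte markers were detected, and none was called different. Krt14, a keratin of basal keratinocytes, was at 22714, 27537 and 22873 CPM in WT and at 17985, 19445 and 20326 CPM in Rescue. Its log2 fold change of -0.34 was not called, but Krt14 was called lower without TMM factors (-0.48, adjusted p = 0.0268), with DESeq2 (-0.35, adjusted p = 0.033) and with offsets for gene length (-0.44, adjusted p = 0.0164).

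A library in each group stood apart from the others. In Rescue replicate 3, 213 genes were more than 4-fold above both other Rescue libraries, and short genes were over-represented. Genes under 1 kb lay 0.77 above the other Rescue libraries on the log2 scale, and genes over 8 kb lay at -0.39. WT replicate 1 had the opposite trend, from -0.44 in genes under 1 kb to 0.11 in genes over 8 kb. The median Rescue-WT log2 fold change ran from 0.46 in genes under 1 kb to -0.06 in genes over 8 kb, and without Rescue replicate 3 the medians of all length classes lay between -0.02 and 0.07. In WT replicate 1, 105 genes were more than 4-fold above both other WT libraries. Among them were transcripts of glia and neurons, for which a list of 10 genes was drawn up after the values were seen. These 10 genes summed to 5293 counts in WT replicate 1, 354 in WT replicate 2 and 10 in WT replicate 3, against 3, 14 and 10 counts in Rescue. The same 10 genes summed to between 1663 and 2102 counts in 1 WT library of 24 h HCM, 1 Rescue library of 24 h HCM and 1 Rescue library of 72 h HCM. Results are therefore also given without WT replicate 1, without Rescue replicate 3, or without both.

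**Figure D1:**
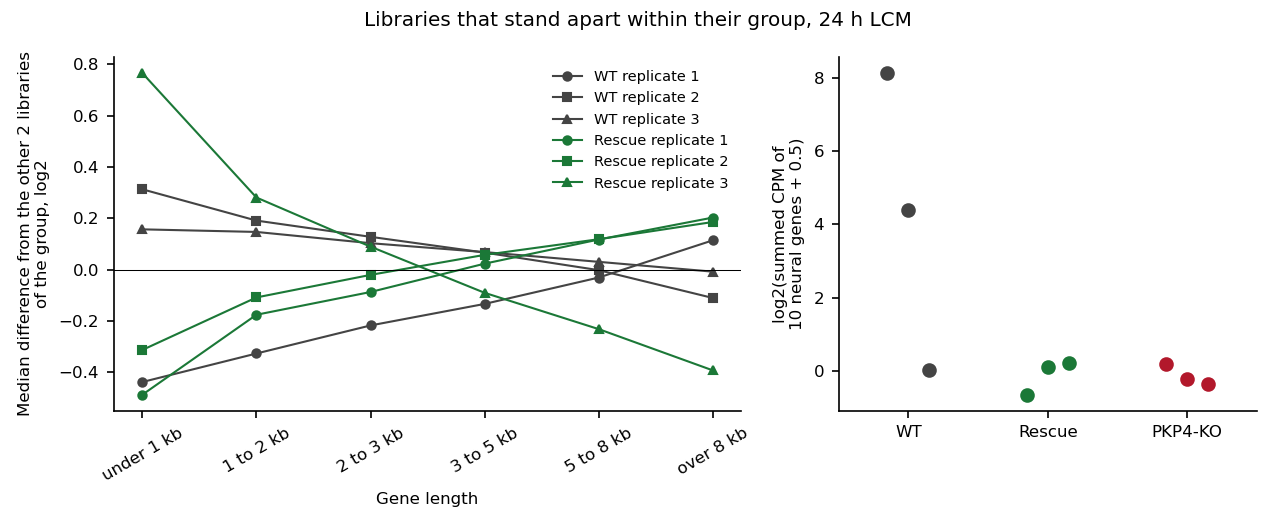
Left, for genes binned by length (x axis), the median log2 difference of each 24 h LCM library from the other 2 libraries of its group (y axis); right, the log2 of the summed CPM (plus 0.5) of 10 glial and neuronal genes in each 24 h LCM library of WT, Rescue and PKP4-KO. Rescue replicate 3 runs from 0.77 in genes under 1 kb to -0.39 in genes over 8 kb, and WT replicates 1 and 2 lie above the other 24 h LCM libraries in the neural genes.

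The knockout and the transgene were read first. Pkp4 (ENSMUSG00000026991, chr2:58991088-59185552 on the forward strand of GRCm39) was at 76.3, 67.9 and 69.1 CPM in WT and at 8.19, 9.27 and 9.95 CPM in Rescue. The groups did not overlap, and the Rescue libraries lay within 2 CPM of the PKP4-KO libraries, which were at 8.25, 9.99 and 8.71 CPM. The log2 fold change was -2.96 (SE 0.169, edgeR adjusted p = 2.97e-13), and 12.8% of the WT level was left. An exact permutation test over the 3 against 3 libraries gave p = 0.1 (two-sided), the smallest value this design allows. The GFP-PKP4 sequence, which the authors added to the genome before counting, had 5916, 7038 and 1902 counts in Rescue. It had 0, 1 and 82 counts in WT and 70, 43 and 31 in PKP4-KO. Rescue replicate 3 thus held the lowest transgene level of its group, 124 CPM against 269 and 291 CPM. The mouse gene stayed at its knockout level in Rescue while the transgene was present in every Rescue library.

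Sex-linked transcripts also differed between the groups. Xist, the RNA that coats the inactive X chromosome of females, had 1320, 415 and 567 counts in WT, 0, 2 and 6 in Rescue and 2, 6 and 3 in PKP4-KO. Eif2s3y, a translation factor gene of the Y chromosome, had 5, 0 and 1 counts in WT, 101, 87 and 48 in Rescue and 0 in all 3 PKP4-KO libraries. Over the 12 libraries of each genotype, Xist lay between 350 and 1385 counts in WT, between 0 and 37 in Rescue and between 0 and 13 in PKP4-KO, and Eif2s3y between 0 and 5, 28 and 150, and 0 and 3. Rescue cells thus differed from the PKP4-KO libraries of the series in Y-linked transcripts as well as in the transgene. The part of the sex chromosomes in the results below was not tested.

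**Figure D2:**
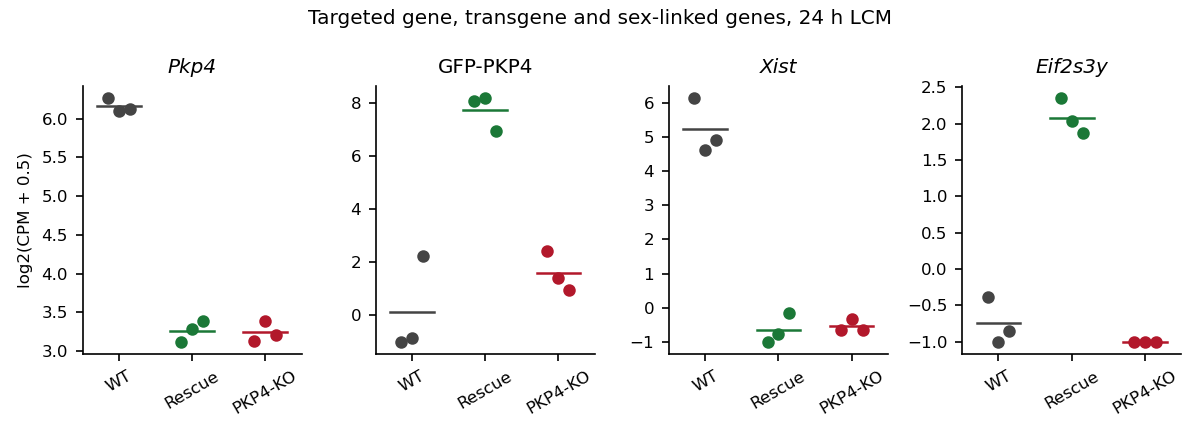
Levels at 24 h LCM of Pkp4, the GFP-PKP4 transgene, Xist and Eif2s3y as log2(CPM + 0.5) on the y axis, each point a library and each line the mean of the 3 libraries of WT, Rescue or PKP4-KO. Pkp4 is at 67.9 to 76.3 CPM in WT and below 10 CPM in both other groups, GFP-PKP4 and Eif2s3y are high in Rescue only, and Xist in WT only.

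Across all genes, Rescue and WT differed widely. At an adjusted p-value below 0.05, 3753 genes were called (24.8% of those tested), of which 2034 were higher (13.5%) and 1719 lower (11.4%) in Rescue. The log2 fold change exceeded 1 in size for 1821 of them, 1035 higher and 786 lower. The libraries of the groups did not overlap for 6157 genes (40.7%), 3622 of them called. The median over all tested genes was 0.02 with TMM factors and -0.12 without them, and without them the calls split into 1324 higher and 1689 lower. Without WT replicate 1 and Rescue replicate 3, 2504 genes were called, 1422 higher and 1082 lower.

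Several gene lists had most of their calls in 1 direction, as the plot of calls by gene list shows. Stress response, immediate early, cytokine and glycolysis genes were called higher in Rescue far more often than the 13.5% of all genes, and cell cycle genes were called lower more often than the 11.4% of all genes. Adherens junction genes were not called in either direction. All lists were chosen with earlier results of these data known, and no list was tested as a set.

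**Figure D3:**
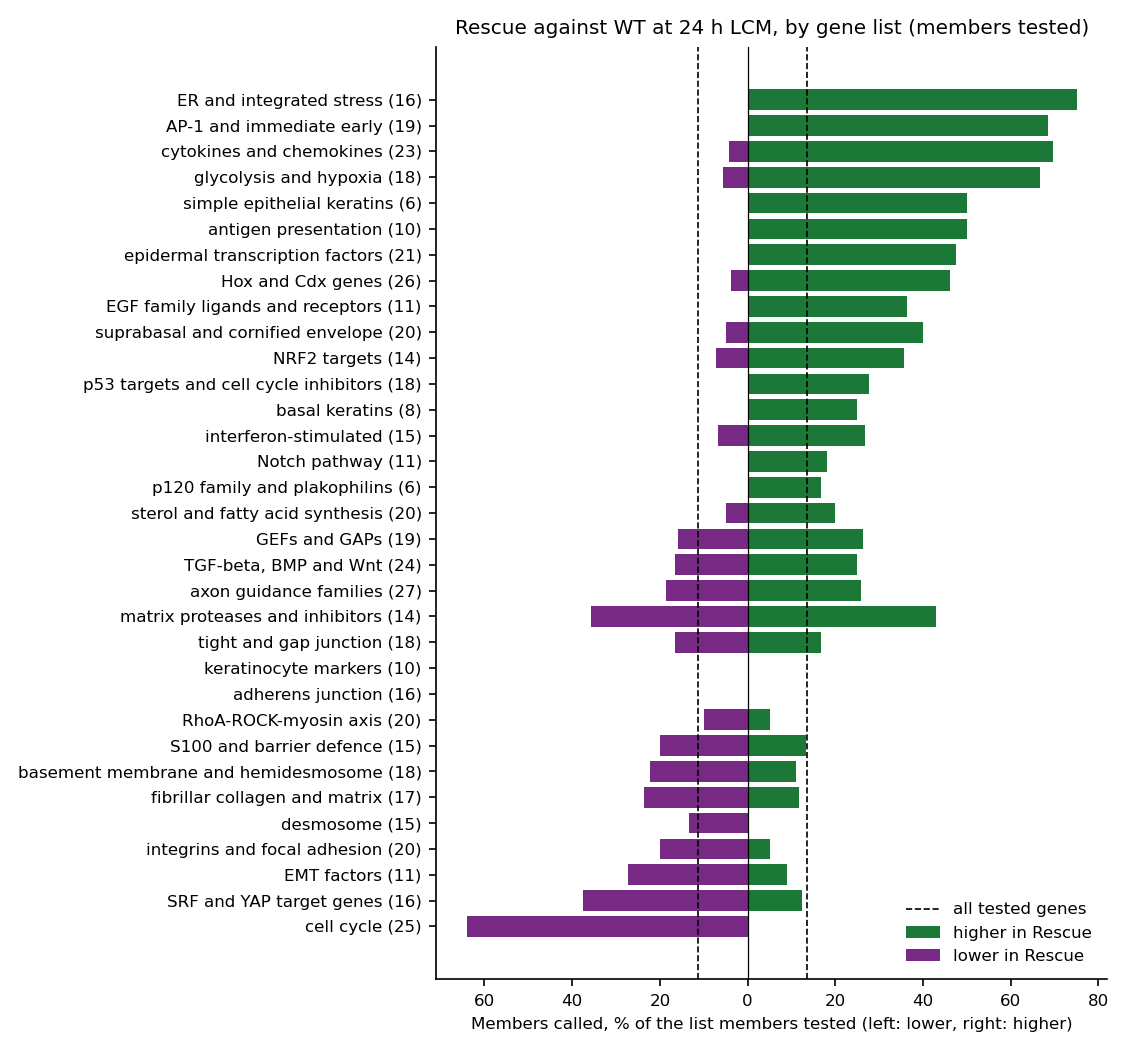
Share of the tested members of each gene list (y axis, number of members tested in parentheses) that were called higher (right, green) or lower (left, purple) in Rescue than in WT at 24 h LCM, in percent; dashed lines mark the shares over all tested genes, 13.5% higher and 11.4% lower. Bars of the ER and integrated stress, AP-1, cytokine and glycolysis lists pass the right line, the cell cycle bar passes the left line, and the adherens junction list has no bar.

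Among the lists other than those of control markers, the largest share of members called in 1 direction was that of the integrated and endoplasmic reticulum (ER) stress responses, 75%. In these pathways a shortage of amino acids or unfolded proteins in the ER leads to phosphorylation of the translation factor eIF2, and the transcription factor ATF4 then switches on genes of amino acid supply and protein folding. Of 16 members, 12 were higher in Rescue and none was lower, and the median was 0.84 on the log2 scale against 0.02 over all genes. Members named here and below beyond the strongest and most abundant ones of a list were chosen after their values were seen.

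Atf4 itself, the central factor of the response, was at 199, 248 and 263 CPM in WT and at 632, 658 and 724 CPM in Rescue. All Rescue libraries lay above all WT libraries, with an adjusted p-value of 3.02e-07. PKP4-KO cells had a similar level, 801, 674 and 614 CPM. Trib3, a pseudokinase that is a target of ATF4, was at 16, 20.8 and 27.3 CPM in WT and at 188, 196 and 154 CPM in Rescue (log2 fold change 3.07, SE 0.198, adjusted p = 3.34e-12). It was also high in PKP4-KO, at 205, 220 and 174 CPM.

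Chac1 and Ddit3 were higher in Rescue than in both other cell types. Chac1, an enzyme that degrades glutathione, was at 17.6, 19 and 20.7 CPM in WT, at 94, 98.8 and 102 CPM in Rescue and at 28.4, 30.4 and 32.1 CPM in PKP4-KO. Ddit3, which encodes the factor CHOP, was at 6.03, 8.93 and 9.74 CPM in WT, 71, 75.6 and 51.9 CPM in Rescue and 31.1, 24.3 and 24.1 CPM in PKP4-KO. Herpud1, a component of ER-associated degradation, was at 29.8, 33.4 and 35.8 CPM in WT and at 133, 136 and 98.3 CPM in Rescue. The log2 fold changes against WT were 2.36, 3.01 and 1.89. The ER chaperones Hspa5 and Hsp90b1 were not called. Without both libraries that stood apart 10 members were called higher, and without TMM factors 8.

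Promoter sequences are shown for members of the stress, cytokine, cell cycle and glycolysis lists that hold the letters of a known response element, since most members of these lists were called in the same direction. They were read from the RefSeq windows of GRCm38.p6, 250 bases before to 50 after a transcript start, of which the table holds 32851. All 16 stress genes were found there. Each motif was searched on both strands of the 250 bases before the start, and the 50 bases after it were not searched. For the stress genes the letters were TGATGNAA of the C/EBP-ATF response element. Capitals mark the match in the lines below, each read 5′ to 3′ on the strand of the gene.

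Chac1, chr2:119351019-119351086, forward strand: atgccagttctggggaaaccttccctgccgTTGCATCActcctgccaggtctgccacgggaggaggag
Herpud1, chr8:94386287-94386354, forward strand: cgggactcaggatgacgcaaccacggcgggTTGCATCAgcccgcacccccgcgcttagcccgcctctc
Asns, chr6:7693210-7693262, reverse strand: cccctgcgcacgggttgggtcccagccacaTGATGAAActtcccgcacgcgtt

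In these 3 genes, all called higher, the match lay 193, 112 and 23 bases before the start. A match was in 3 of the 18 windows of the list (16.7%) and in 3.45% of all windows. Asns, asparagine synthetase, was at 258, 329 and 320 CPM in WT and at 463, 479 and 373 CPM in Rescue, and was not called without TMM factors (adjusted p = 0.114).

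Cytokines and chemokines formed the next group. Keratinocytes release such signals when the barrier is damaged, and IL-1 family members act on neighbouring keratinocytes and immune cells. Of 23 members tested, 16 were higher in Rescue and 1, Cxcl14, was lower, and the median of their log2 fold changes was 1.62. Without both libraries that stood apart the count of higher members was 13.

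Secreted factors that act on leukocytes had the largest differences. Csf3, the granulocyte colony-stimulating factor, was at 3.01, 3.5 and 3.9 CPM in WT and at 85, 90.1 and 86.1 CPM in Rescue (log2 fold change 4.64, SE 0.284, adjusted p = 1.2e-12). Tslp, an epithelial cytokine of allergic inflammation, was at 0.793, 1.17 and 2.03 CPM in WT and at 37.6, 34.6 and 26.7 CPM in Rescue (log2 fold change 4.62, SE 0.394, adjusted p = 5.99e-10). For both, the lowest Rescue library was more than 10 times the highest WT library. Ccl20, a chemokine for dendritic cells and lymphocytes, had 1, 0 and 2 counts in WT and 164, 127 and 169 in Rescue, a ratio of summed CPM of 138 with a 95% counting interval of 46.9 to 672.

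Within the IL-1 family, Il1a was at 12.2, 9.39 and 11.1 CPM in WT and at 79.3, 73.6 and 44.5 CPM in Rescue. Il1rn, which encodes the antagonist of the IL-1 receptor, was at 15.4, 16 and 13 CPM in WT and at 40.1, 42.1 and 33.1 CPM in Rescue. Agonist and antagonist were thus both higher, with log2 fold changes of 2.59 and 1.38. Il24, an IL-10 family cytokine, was at 12.8, 20.1 and 17.8 CPM in WT and at 94.8, 97.9 and 108 CPM in Rescue. Cxcl5, the most abundant chemokine of the list, was at 321, 378 and 357 CPM in WT and 589, 584 and 382 CPM in Rescue and was not called (adjusted p = 0.118). The lone lower member, Cxcl14, had a log2 fold change of -0.43 and lost its call when any 1 of 5 of the 6 libraries was left out, with adjusted p-values up to 0.222. It was not called with the replicate block either (adjusted p = 0.0568).

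Leukocyte markers were read beside this group. Of 9 markers, 3 were tested and 1, the lysosomal protein gene Cd68, was called. It was at 21, 31.7 and 23.6 CPM in WT and at 71.8, 80.9 and 112 CPM in Rescue. The pan-leukocyte marker Ptprc had 0, 2 and 0 counts in WT and 0, 4 and 0 in Rescue, and Cd3e and Cd207 had no count in any of the 6 libraries. Rescue replicate 2 held more myeloid transcripts than the others. Lyz2, a lysozyme of myeloid cells, had 2, 2 and 0 counts in WT and 0, 61 and 0 in Rescue and was not called (adjusted p = 0.222), and Itgam had 0, 1 and 0 counts in WT and 0, 13 and 0 in Rescue. Adgre1 and Tyrobp had 5 counts each in that library. Csf1r had 20, 2 and 2 counts in WT and 2, 3 and 10 in Rescue. Their part in the cytokine results was not tested. The summed level of the 9 markers was 22.5 to 32.1 CPM in WT and 71.9 to 112 CPM in Rescue, nearly all of it from Cd68.

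The letters TGACTCA of the AP-1 element were in 4 of the 15 cytokine genes with a window, of which Il1a, Il1rn and Lif were called higher and Ccl27a was not called. These were 4 of 20 windows (20%), against 4.46% of all windows.

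Il1a, chr2:129309973-129310014, reverse strand: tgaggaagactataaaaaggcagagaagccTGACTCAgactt
Il1rn, chr2:24336689-24336755, forward strand: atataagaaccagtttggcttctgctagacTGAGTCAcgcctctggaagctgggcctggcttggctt
Lif, chr11:4257318-4257376, forward strand: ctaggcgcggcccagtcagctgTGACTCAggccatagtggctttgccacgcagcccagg

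Lif, a cytokine of the IL-6 family, was at 3.12, 6.77 and 5.15 CPM in WT and at 16.8, 17.7 and 16.8 CPM in Rescue.

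AP-1 is a dimer of FOS and JUN proteins that is induced within minutes by growth factors and stress. Of the 19 AP-1 and immediate early genes, 13 were higher in Rescue and none was lower (median log2 fold change 1.36). Fosl1, a FOS family member of migrating keratinocytes, was at 16.2, 20.2 and 15.7 CPM in WT and at 78, 93.2 and 77.1 CPM in Rescue, while PKP4-KO was at 18.8, 20.2 and 20.5 CPM. Junb was at 85.8, 93.9 and 103 CPM in WT and at 248, 276 and 202 CPM in Rescue. Their log2 fold changes were 2.25 and 1.36. Ier3, an early response gene, had the largest difference of the list, 2.76 (SE 0.433, adjusted p = 1.76e-05), from 39.8, 51.5 and 42.3 CPM to 221, 226 and 460 CPM. Myc, the most abundant member, was at 176, 200 and 193 CPM in WT and 280, 277 and 230 CPM in Rescue, a log2 fold change of 0.47 that was no longer called without TMM factors (adjusted p = 0.308), without WT replicate 1 (adjusted p = 0.0615), without Rescue replicate 1 (adjusted p = 0.0539) or without Rescue replicate 2 (adjusted p = 0.0522).

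EGF family ligands signal through ERK to these genes and sustain keratinocyte growth in culture. Of 11 members, 4 were higher and none was lower, and all 4 were ligands. Areg was at 3.01, 3.62 and 4.95 CPM in WT and at 68.5, 77.9 and 43.6 CPM in Rescue (log2 fold change 4.03, SE 0.301, adjusted p = 4.61e-11). Epgn was at 41, 26.9 and 30.9 CPM in WT and at 167, 155 and 86 CPM in Rescue. Both were also above WT in PKP4-KO, Areg at 13.5, 20.7 and 16.9 CPM and Epgn at 63, 101 and 101 CPM. Hbegf was at 13.5, 14.8 and 16.6 CPM in WT, 58.2, 63.5 and 40.2 CPM in Rescue and 6.7, 10.4 and 8.62 CPM in PKP4-KO. The feedback inhibitors of ERK Dusp5 and Dusp6 were higher too, with log2 fold changes of 2.16 and 1.62.

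Genes of glycolysis and the hypoxia response followed the same direction. The factor HIF-1 activates both glucose uptake and glycolysis and the growth factor VEGF when oxygen is short. Of 18 members, 12 were higher and 1, Pdk1, was lower (median log2 fold change 0.64), and 8 were higher without both libraries that stood apart. Vegfa, an endothelial growth factor, was at 5.6, 6.42 and 9.58 CPM in WT and at 76.3, 70.5 and 34.7 CPM in Rescue (log2 fold change 3.07, SE 0.307, adjusted p = 1.23e-08). Hk2, which phosphorylates glucose in the first step of glycolysis, was at 36.5, 40.2 and 39.5 CPM in WT, 135, 141 and 100 CPM in Rescue and 45.8, 50.2 and 52.1 CPM in PKP4-KO. Pkm, the pyruvate kinase gene and the most abundant member, was at 1491, 1750 and 1620 CPM in WT, 2546, 2656 and 2832 CPM in Rescue and 4029, 4002 and 3661 CPM in PKP4-KO. The order of the 3 cell types thus differed between members. Pdk1, which restrains entry of pyruvate into mitochondria, had a log2 fold change of -0.60 and was not called without Rescue replicate 3 (adjusted p = 0.117), without WT replicate 3 (adjusted p = 0.0659) or without TMM factors (adjusted p = 0.07).

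The core letters GACGTG of the hypoxia response element were in 8 of the 17 genes with a window, 7 of them called higher, and in 9 of 26 windows (34.6%) against 5.20% of all windows. Examples are Hk2 and Egln3, a prolyl hydroxylase of HIF.

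Hk2, chr6:82774471-82774536, reverse strand: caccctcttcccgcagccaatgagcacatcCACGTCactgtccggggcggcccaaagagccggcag
Egln3, chr12:54204069-54204124, reverse strand: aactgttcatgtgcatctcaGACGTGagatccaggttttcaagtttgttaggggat

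Egln3 was at 8.46, 9.68 and 8.59 CPM in WT and at 25.2, 27.8 and 24 CPM in Rescue (log2 fold change 1.53).

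Cell cycle genes were lower in Rescue. Of 25 members tested, 16 were lower and none was higher, and the median was -0.55 on the log2 scale, and 15 were lower without both libraries that stood apart. The largest decreases were those of Ccne2, Cdc6, Pcna, Mcm7 and E2f1, all genes of the G1 to S transition or of DNA replication. Pcna, the sliding clamp of DNA polymerases, was at 425, 492 and 486 CPM in WT, 210, 201 and 200 CPM in Rescue and 494, 663 and 577 CPM in PKP4-KO. Cdc6, which loads the replicative helicase, was at 20.9, 24 and 21.2 CPM in WT, 6.74, 8.19 and 7.59 CPM in Rescue and 19.2, 27.3 and 27.6 CPM in PKP4-KO. Mcm7, a subunit of that helicase, was at 233, 285 and 269 CPM in WT and at 118, 109 and 152 CPM in Rescue. PKP4-KO thus lay near or above WT for Pcna and Cdc6. The log2 fold changes of Rescue against WT were -1.20, -1.55 and -1.05.

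Cyclins differed among themselves. Ccne2, cyclin E2 of the G1 to S transition, was at 33.3, 18.7 and 23.5 CPM in WT and at 3.64, 3.89 and 2.23 CPM in Rescue (log2 fold change -2.94, SE 0.379, adjusted p = 9.33e-07). Ccnd2, cyclin D2 and the most abundant member of the list, was at 370, 337 and 338 CPM in WT and 388, 370 and 359 CPM in Rescue, with no call (adjusted p = 0.678). Among mitotic genes, Cdk1 had a log2 fold change of -0.55 and Aurka of -0.45, while Mki67, Top2a, Plk1 and Ccnb1 were not called. Of 18 p53 targets and cell cycle inhibitors, 5 were higher and none was lower, against 3 higher without both libraries that stood apart and 1 lower without TMM factors. Cdkn1c, the inhibitor p57, was at 0.582, 0.525 and 0.573 CPM in WT and at 10.8, 11.8 and 6.09 CPM in Rescue (log2 fold change 4.08, SE 0.347, adjusted p = 5.58e-10), and Cdkn2a, the locus of p16 and p19ARF, was at 20.4, 23.8 and 25.1 CPM in WT and 61.6, 62.5 and 102 CPM in Rescue. Cdkn2a was not called without both libraries that stood apart (adjusted p = 0.0752).

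E2F factors bind cell cycle promoters. The letters TTTCCCGC were in the windows of Cdc6 and Mcm7 and TTTGGCGC in those of Mcm5 and Mcm6, each motif in 2 of the 20 windows of the list (10%). Over all windows the shares were 0.895% and 0.417%. All 4 genes were called lower.

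Cdc6, chr11:98907983-98908050, forward strand: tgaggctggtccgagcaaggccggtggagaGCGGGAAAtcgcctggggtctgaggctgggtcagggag
Mcm6, chr1:128359715-128359782, reverse strand: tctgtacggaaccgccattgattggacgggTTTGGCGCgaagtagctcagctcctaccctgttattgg

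All motif counts describe these letters in these windows, and no factor binding was measured.

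**Figure D4:**
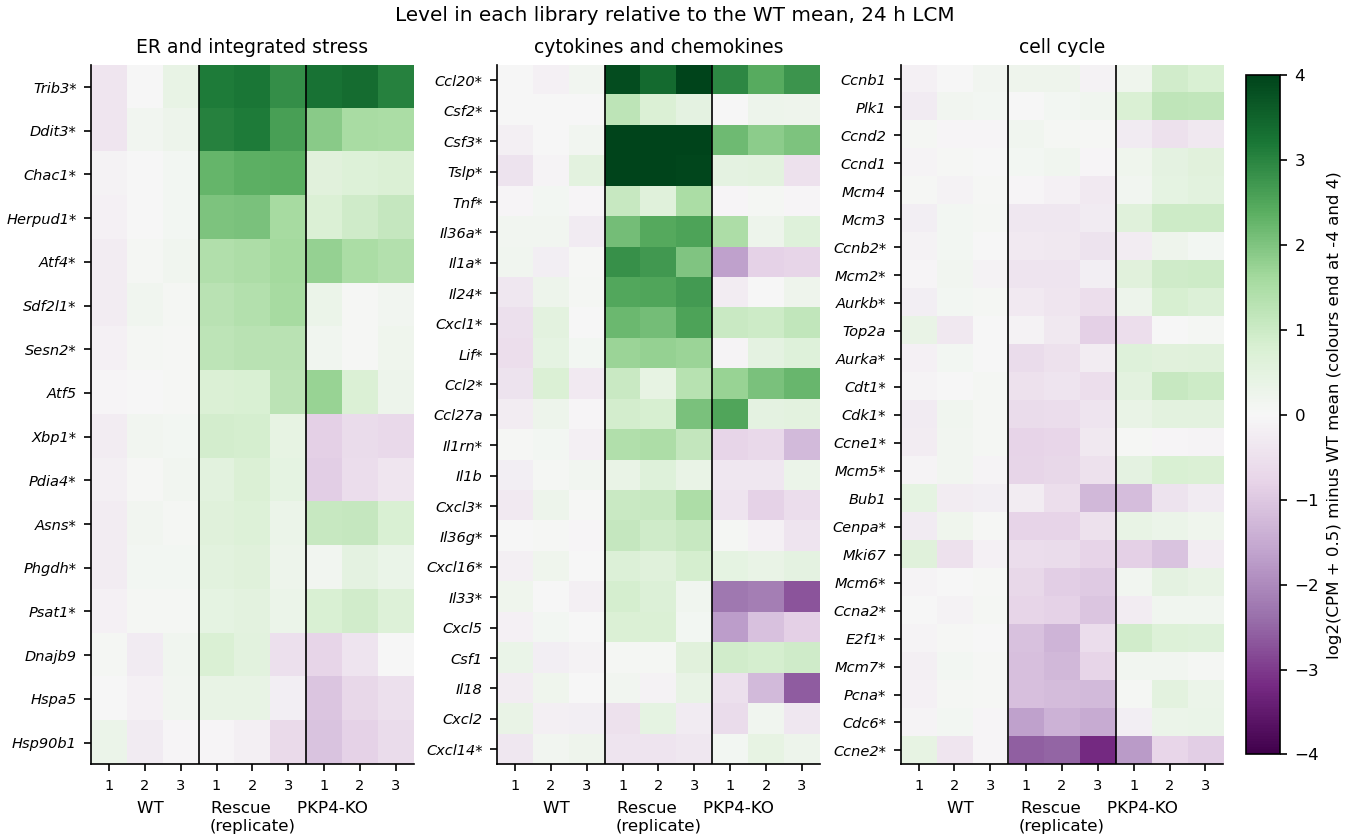
Each row is a tested member of the ER and integrated stress, cytokine or cell cycle list (asterisk, called between Rescue and WT) and each column a 24 h LCM library of WT, Rescue or PKP4-KO; the colour gives log2(CPM + 0.5) minus the WT mean, from -4 to 4. Trib3 and Atf4 are green in both Rescue and PKP4-KO, Chac1, Tslp and Il1a are greenest in Rescue, and Pcna, Cdc6 and Ccne2 are purple in Rescue.

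Junction genes were read next, although the paper places PKP4 in the cytoplasm in LCM and at junctions only in HCM. No member of the 16 tested adherens junction genes was called in either direction, and none without either or both of the libraries that stood apart. Without TMM factors 1 member was called higher, and with offsets for gene length 1 was called lower. Jup, plakoglobin, was at 933, 1051 and 945 CPM in WT and at 936, 993 and 1039 CPM in Rescue. The list of 6 p120 and plakophilin genes left out Pkp4 itself, and Arvcf, a p120 family member, was the single called gene of that list. Arvcf was at 11.4, 13.4 and 16 CPM in WT, 34.2, 34.9 and 34 CPM in Rescue and 9.09, 11.1 and 10.4 CPM in PKP4-KO (log2 fold change 1.33, SE 0.154, adjusted p = 1.5e-07). Of 15 desmosome genes, 2 were lower. Dsg1a, a desmosomal cadherin with close copies, was at 30, 17.1 and 20.6 CPM in WT and 12, 10 and 4.78 CPM in Rescue. Without WT replicate 1 (adjusted p = 0.064) or without Rescue replicate 3 (adjusted p = 0.0677) it was not called. The other member, Dsc2, was not called when any 1 of 4 libraries was left out, with adjusted p-values up to 0.177.

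Among 18 tight and gap junction genes, 3 were higher and 3 lower. Cldn1, the main claudin of the epidermal barrier, was at 63.2, 62.8 and 63.6 CPM in WT, 26.4, 27.3 and 24.9 CPM in Rescue and 1.9, 3.36 and 3.28 CPM in PKP4-KO (log2 fold change -1.27, SE 0.188, adjusted p = 7.82e-06). The level in Rescue thus lay between those of the other cell types. Gjb2, connexin 26, was at 9.73, 10.8 and 10.8 CPM in WT, 53.6, 63.7 and 47 CPM in Rescue and 29, 20.4 and 20 CPM in PKP4-KO, and so was highest in Rescue. The other lower genes, Ocln and Cgn, had log2 fold changes of -0.84 and -0.71. The call of Ocln was lost when any 1 of the 6 libraries was left out, with adjusted p-values up to 0.143, and that of Cgn when any 1 of 4 was, with values up to 0.137. Without either library that stood apart the count of lower genes was 1, as it was without TMM factors.

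RhoA and its kinase ROCK drive myosin contraction and stabilise actin filaments through LIM kinase. Of the 20 members of this axis, Rhob was higher and Limk1 and Diaph1 were lower, shares close to or below those of all genes. Without Rescue replicate 3 the count of higher members was 2, and with offsets for gene length 3. Limk1, which phosphorylates cofilin, was at 34, 37.9 and 35.8 CPM in WT, 18.5, 18.7 and 23.6 CPM in Rescue and 9.59, 9.84 and 5.95 CPM in PKP4-KO (log2 fold change -0.83, SE 0.198, adjusted p = 0.00243). Diaph1, a formin that elongates actin filaments, was at 142, 144 and 133 CPM in WT and 96.9, 97.1 and 71 CPM in Rescue. It was not called without both libraries that stood apart (adjusted p = 0.0507). Rhob, a RhoA relative, was at 32.5, 29.5 and 30.4 CPM in WT and 57.5, 58.4 and 42.5 CPM in Rescue. Actb, whose reads can be shared with copies, was at 1297, 1919 and 1906 CPM in WT and 2666, 2892 and 5639 CPM in Rescue and was not called (adjusted p = 0.185).

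Guanine nucleotide exchange factors (GEFs) and GTPase-activating proteins (GAPs) were called in both directions, 5 of 19 higher and 3 lower. All 3 lower genes, Stard13, Dlc1 and Arhgap29, encode GTPase-activating proteins. Stard13 was at 10.6, 7.93 and 9.79 CPM in WT and at 1.41, 1.24 and 2.42 CPM in Rescue (log2 fold change -2.50, SE 0.28, adjusted p = 9.29e-08). Dlc1 was at 32.8, 32.4 and 31.4 CPM in WT and 10.6, 12.6 and 12.2 CPM in Rescue. Both were low in PKP4-KO as well, Stard13 at 2.68, 4.77 and 3.84 CPM and Dlc1 at 10.4, 12.8 and 17 CPM. The higher genes were the exchange factor genes Arhgef1, Arhgef2 and Arhgef28, the GTPase activator gene Arhgap24 and Arhgdib, which encodes an inhibitor of GDP dissociation. Arhgap29 was not called without Rescue replicate 3 (adjusted p = 0.0774) or WT replicate 1 (adjusted p = 0.0578), nor Arhgef28 without Rescue replicate 2 (adjusted p = 0.0569) or without TMM factors (adjusted p = 0.12). Arhgef1 was not called when any 1 of 4 libraries was left out, with adjusted p-values up to 0.157, or without TMM factors (adjusted p = 0.361), under which the count of higher genes of the list was 3. Arhgef2, a microtubule-bound exchange factor for RhoA, was at 28.2, 28.9 and 30.2 CPM in WT and 62.9, 65.7 and 48.6 CPM in Rescue. Arhgdib was at 130, 197 and 178 CPM in WT, 408, 426 and 676 CPM in Rescue and 225, 142 and 122 CPM in PKP4-KO.

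Targets of SRF and YAP, the transcription regulators that respond to actin and tension, were lower in 6 of 16 cases and higher in 2, the same counts as without both libraries that stood apart, and 1 was higher without TMM factors. Acta2, smooth muscle actin, was at 21.7, 27.2 and 27 CPM in WT, 1.5, 2.57 and 3.86 CPM in Rescue and 0.634, 0.351 and 0.328 CPM in PKP4-KO (log2 fold change -3.27, SE 0.38, adjusted p = 1.65e-07). Ccn2, a YAP target also known as CTGF, was at 121, 130 and 121 CPM in WT, 25, 22.4 and 16.3 CPM in Rescue and 0.282, 1.2 and 1.97 CPM in PKP4-KO. For both genes the Rescue libraries lay between the others, below every WT library and above every PKP4-KO library. Tpm1, a tropomyosin, had the opposite direction, at 350, 367 and 379 CPM in WT and 614, 549 and 660 CPM in Rescue.

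Matrix and adhesion genes were called in both directions. Col4a2, a chain of the basement membrane collagen, was at 34.6, 38.3 and 37.5 CPM in WT, 8.1, 11.1 and 8.9 CPM in Rescue and 0.282, 0.1 and 0.187 CPM in PKP4-KO (log2 fold change -1.97, SE 0.27, adjusted p = 2.43e-06). Basement membrane and hemidesmosome genes were lower in 4 of 18 cases and higher in 2, and the count of higher genes was 1 without WT replicate 1 and 0 without TMM factors. Of 20 integrin and focal adhesion genes, 4 were lower and 1, Itga3, was higher, with a log2 fold change of 0.39 and an adjusted p-value of 0.0332 that lay above 0.05 when any 1 of 4 libraries was left out (0.178 without WT replicate 1). Itgb6, an integrin of wound-edge keratinocytes, was at 33.9, 37 and 36.3 CPM in WT and 18.9, 13.5 and 16.2 CPM in Rescue. Fn1, fibronectin, was at 20.7, 28.1 and 26.1 CPM in WT and 9.42, 9.6 and 7.92 CPM in Rescue. Among matrix proteases and their inhibitors, 6 of 14 were higher and 5 lower. Plaur, the urokinase receptor, was at 15.4, 22.6 and 21.8 CPM in WT and 67.5, 77.3 and 64.1 CPM in Rescue, and Timp2, an inhibitor of metalloproteinases, was at 217, 259 and 270 CPM in WT and 108, 112 and 80.7 CPM in Rescue.

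Keratins and differentiation genes were read next. The most marked keratin was Krt7, a keratin of simple epithelia, at 3.7, 4.14 and 7.29 CPM in WT, 132, 135 and 146 CPM in Rescue and 12.5, 9.29 and 13.3 CPM in PKP4-KO (log2 fold change 4.76, SE 0.257, adjusted p = 1.29e-13). Krt8 and Krt23 were higher as well, so that 3 of 6 simple epithelial keratins were called. Krt8 was not called without WT replicate 1 (adjusted p = 0.0614). Krt17, a keratin of activated keratinocytes, was at 5777, 6844 and 6366 CPM in WT and 8752, 9382 and 9868 CPM in Rescue (log2 fold change 0.56), and its adjusted p-value was 0.0891 without both libraries that stood apart. Krt15, a basal keratin, was at 6.71, 6.3 and 8.07 CPM in WT and 27.4, 27.8 and 48.3 CPM in Rescue, both far below the 674, 532 and 328 CPM of PKP4-KO.

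Of 20 genes of the suprabasal layers and the cornified envelope, 8 were higher and 1, the kallikrein gene Klk7, was lower. Klk7 was not called without Rescue replicate 1 (adjusted p = 0.0783), Rescue replicate 3 (adjusted p = 0.0772) or WT replicate 2 (adjusted p = 0.128). Tgm1 and Tgm3 encode transglutaminases that crosslink the envelope. Tgm1 was at 29.3, 35 and 34.4 CPM in WT, 90.9, 102 and 104 CPM in Rescue and 13.7, 9.24 and 8.43 CPM in PKP4-KO. Tgm3 was at 61, 72.8 and 58.9 CPM in WT, 243, 278 and 186 CPM in Rescue and 29.2, 28.6 and 20.2 CPM in PKP4-KO. Both thus lay above WT in Rescue and below WT in PKP4-KO. Sprr2d, an envelope precursor, was at 24.8, 38.1 and 37.1 CPM in WT and 130, 163 and 186 CPM in Rescue. Krt1, a keratin of the first suprabasal layer, was at 0.846, 0.642 and 0.677 CPM in WT and 2.32, 2.61 and 21.4 CPM in Rescue, a log2 fold change of 3.57 that fell to 1.76 without Rescue replicate 3 (adjusted p = 0.000453).

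Transcription factors of the epidermis were higher in 10 of 21 cases and lower in none, with the same count of 10 without both libraries that stood apart and 7 without TMM factors. Gata3, a factor of barrier formation, was at 0.793, 0.525 and 0.364 CPM in WT, 6.33, 6.17 and 7.53 CPM in Rescue and 1.2, 0.703 and 0.468 CPM in PKP4-KO (log2 fold change 3.55, SE 0.455, adjusted p = 8.15e-07). Klf5 was at 53.6, 45.9 and 53.5 CPM in WT and 135, 124 and 100 CPM in Rescue. Klf4, the most abundant member, was at 286, 253 and 290 CPM in WT and 233, 230 and 141 CPM in Rescue and was not called (adjusted p = 0.108).

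Hox genes, which record the position of a cell along the body axis, differed in 13 of 26 cases, 12 higher and 1 lower. Hoxb7 was at 0.634, 0.642 and 1.2 CPM in WT, 13.7, 11.5 and 12.1 CPM in Rescue and 17.2, 21 and 18.5 CPM in PKP4-KO (log2 fold change 3.90, SE 0.268, adjusted p = 1e-11). Hoxb2 was at 0.264, 0.0583 and 0.521 CPM in WT, 4.96, 6.58 and 3.47 CPM in Rescue and 11.1, 16.4 and 16.4 CPM in PKP4-KO. Both knockout-derived cell types thus lay above WT in these genes. Hoxd8, the lower member, was at 2.96, 4.55 and 4.01 CPM in WT and 0.091, 0.455 and 0.851 CPM in Rescue, but at 5.71, 8.89 and 6.14 CPM in PKP4-KO. Its log2 fold change of -3.10 became -3.75 without Rescue replicate 3.

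Antigen presentation genes were higher in 5 of 10 cases. H2-D1, a class I histocompatibility gene with close copies, was at 11.6, 14.4 and 15.7 CPM in WT, 78.9, 87.4 and 87.4 CPM in Rescue and 77.1, 91.1 and 98.7 CPM in PKP4-KO (log2 fold change 2.60, SE 0.148, adjusted p = 2.97e-13). B2m, its light chain, was at 11.5, 11.4 and 10.6 CPM in WT and 28.6, 28.6 and 31.3 CPM in Rescue. Of 15 genes induced by interferon, 4 were higher and 1 lower, and without both libraries that stood apart 1 was higher and 1 lower. Without TMM factors 2 were higher.

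The largest decreases by the rule were read next. Txnip, which restrains glucose uptake and binds thioredoxin, was at 72.6, 82.5 and 78.1 CPM in WT, 0.319, 1.2 and 0.589 CPM in Rescue and 5.78, 8.99 and 18.9 CPM in PKP4-KO (log2 fold change -6.74, SE 0.431, adjusted p = 2.85e-12). Without Rescue replicate 2, its highest Rescue library, the log2 fold change was -7.45. Vnn1, a pantetheinase, was at 28.6, 28.6 and 29.3 CPM in WT and between 0.182 and 0.497 CPM in Rescue, and Pmp22, a tetraspan membrane protein of myelin and epithelia, was at 41.7, 39.7 and 45.5 CPM in WT and 1.27, 0.579 and 1.18 CPM in Rescue. PKP4-KO lay below 0.4 CPM in both genes. Igfbp2, which binds insulin-like growth factors, was the most abundant gene with a large decrease, at 1280, 1540 and 1635 CPM in WT, 148, 153 and 146 CPM in Rescue and 9.31, 14.2 and 11.8 CPM in PKP4-KO (log2 fold change -3.31, SE 0.365, adjusted p = 7.01e-08). Nhsl2, Tbx18, Loxl4, Iqgap2, Klra8 and Cdh6 completed the rule's genes, with log2 fold changes between -5.63 and -4.13. Klra8 belongs to a family of close copies.

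Gfap and Plekhb1 were also among the 12 largest decreases, but their WT level came from WT replicate 1. Gfap, a filament of astrocytes, had 368, 25 and 4 counts in WT and 0, 0 and 1 in Rescue, and its adjusted p-value was 0.00997 with and 0.153 without that library. For Plekhb1 the adjusted p-value went from 0.00468 to 0.051. Gfap was also not called without Rescue replicate 2 (adjusted p = 0.0506). Gfap is one of the 10 neural genes listed above, and Plekhb1 is not.

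Among the largest increases were genes high in both knockout-derived cell types and genes high in Rescue alone. Evc2 and Evc, neighbouring genes of the primary cilium, were of the first kind. Evc2 was at 0.211, 0.233 and 0.312 CPM in WT, 16, 15.4 and 14 CPM in Rescue and 13.2, 17.4 and 19.1 CPM in PKP4-KO (log2 fold change 5.86, SE 0.359, adjusted p = 1.2e-12). Cbr1, a carbonyl reductase, was at 0.952, 0.583 and 0.781 CPM in WT, 27.3, 27.8 and 36.7 CPM in Rescue and 28.5, 31.6 and 29.4 CPM in PKP4-KO. Has3, a hyaluronan synthase, was of the second kind, at 0.159, 0.117 and 0.312 CPM in WT, 6.46, 8.57 and 4.84 CPM in Rescue and 0.423, 0.853 and 0.375 CPM in PKP4-KO. So was Slc1a1, a glutamate and cysteine transporter, at 0.899, 0.175 and 0.0521 CPM in WT, 17.9, 13.5 and 14.2 CPM in Rescue and 1.41, 1.56 and 1.45 CPM in PKP4-KO. The log2 fold change of Slc1a1 was 5.30, and 7.02 without WT replicate 1.

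Serpinb3a, a serpin with close copies, had 0, 0 and 2 counts in WT and 127, 147 and 99 in Rescue, a ratio of 168 with a 95% counting interval of 46.1 to 1391. Xlr3b, Renbp, Flywch2 and Slc29a1 were the other large increases, with log2 fold changes of 5.76, 5.09, 4.94 and 4.90. Renbp was at 3.81, 2.41 and 1.69 CPM in PKP4-KO against 18.4, 18.6 and 20.8 CPM in Rescue, and the other 3 were at 9.94 CPM or above in each PKP4-KO library.

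Genes of guidance, growth control and matrix completed the lists. Of 27 axon guidance genes, 7 were higher and 5 lower, against 4 higher without TMM factors and 3 lower without both libraries that stood apart. Robo1, a receptor of SLIT proteins, was at 0.899, 0.7 and 1.82 CPM in WT and 8.15, 8.36 and 5.04 CPM in Rescue. Unc5b, a netrin receptor, was at 13.5, 14.1 and 14.5 CPM in WT and 3.37, 3.97 and 4.06 CPM in Rescue. The groups did not overlap in either gene, and the log2 fold changes were 2.64 and -1.88. Of 17 fibrillar collagen and matrix genes, 2 were higher and 4 lower. The counts were 1 and 2 without Rescue replicate 3 and 1 and 3 without WT replicate 1, and 1 was higher without TMM factors. Fbln2, a fibulin of the extracellular matrix, was at 16.9, 18.8 and 18.8 CPM in WT and 50.9, 50.5 and 46.1 CPM in Rescue. Postn, periostin, was at 2.43, 1.52 and 1.93 CPM in WT and 0.091, 0.372 and 0 CPM in Rescue, and was not called without Rescue replicate 1 (adjusted p = 0.0939), Rescue replicate 3 (adjusted p = 0.0945) or WT replicate 1 (adjusted p = 0.058). Mmp11, a secreted metalloproteinase, was at 10.5, 11.7 and 11.1 CPM in WT and 1.77, 2.48 and 3.67 CPM in Rescue.

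Other members named by the rule had these values. Tns3, a tensin of focal adhesions, was at 51.8, 50.1 and 51.1 CPM in WT and 20.2, 21 and 19.9 CPM in Rescue. Plec, the linker plectin of hemidesmosomes, was at 207, 217 and 223 CPM in WT and 308, 386 and 270 CPM in Rescue, and Gja1, connexin 43, was at 81.7, 76.1 and 83.1 CPM in WT and 118, 123 and 118 CPM in Rescue. All 3 were called, but without TMM factors Plec (adjusted p = 0.0858) and Gja1 (adjusted p = 0.114) were not. Tgfb1 was higher by 0.94 on the log2 scale, Filip1l by 0.80, and Nrarp, a Notch feedback gene, by 0.91. Nrarp was not called without Rescue replicate 2 (adjusted p = 0.0577) or without TMM factors (adjusted p = 0.0791). Filip1l was not called without TMM factors (adjusted p = 0.191) or when any 1 of 4 libraries was left out, with adjusted p-values up to 0.0952. Cavin1, a component of caveolae, was lower by 0.46 and the RNA sensor gene Ddx58 by 1.23, log2 fold changes of -0.46 and -1.23. The most abundant members of several lists were not called, among them Pkp1 (0.22), Perp (-0.31), Arhgdia (-0.16), Col17a1 (0.04), Sparc (-0.27), Sprr1b (0.71), Notch1 (0.14), Tgfbi (-0.13), Hoxb9 (0.40), Wnt4 (0.50), Phlda3 (-0.30), Scd2 (-0.22), Plxnb2 (-0.01) and S100a11 (0.47), on the log2 scale. Without TMM factors Phlda3 was called lower (-0.43, adjusted p = 0.00454). S100a11 was at 2827 CPM in Rescue replicate 3 and at 816 and 919 CPM in the other Rescue libraries.

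Several of the strongest members of a list were scarce. Mmp3, Hoxc4, Adm and Msx2 had 4, 4, 7 and 19 counts in all WT libraries together and were higher in Rescue by 4.44, 4.14, 3.80 and 3.69 on the log2 scale. For Mmp3 the value was 5.64 without WT replicate 1. Tjp3, with 4 counts in WT, was higher by 2.62 and was not called without WT replicate 3 (adjusted p = 0.0507). Lcn2 was not called when any 1 of 3 libraries was left out, with adjusted p-values up to 0.127. Slurp1, a secreted epidermal protein, was at 5.08, 8.63 and 5.73 CPM in WT and 0.182, 0.455 and 0.982 CPM in Rescue. Oas1a, Zeb2 and Thy1 had 2, 2 and 1 counts in their lower group, with ratios of 16.6, 12.8 and 123, and the 95% counting intervals ran from 4.29 to 143, 3.16 to 112 and 21.7 to 4915. For Zeb2 and Thy1 the call depended on single libraries. Without WT replicate 1 their adjusted p-values were 0.344 and 0.367, with DESeq2 0.0562 and 0.497, and each lost its call when any 1 of 4 libraries was left out. Thy1 also lost it with the replicate block (adjusted p = 0.0713), and Zeb2 without the filter (adjusted p = 0.0905). Wnt10b had no count in WT and is not compared.

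Positions along the genome were read because the cell lines come from different mice. The median log2 fold change was -0.33 on chromosome X, where 24.7% of tested genes were lower in Rescue, and -0.29 on chromosome 5, where 25.3% were lower. Chromosome 2, which carries Pkp4, had a median of -0.16 and 18.6% lower, and chromosome 18 a median of -0.21. On the other autosomes the medians lay between -0.05 and 0.19. The 19 tested genes within 5 Mb of Pkp4 had a median of -0.09, 1 higher and 2 lower. The medians of chromosomes X, 5 and 2 had the same sign at 24 h HCM, at -0.39, -0.34 and -0.18, and without both libraries that stood apart, at -0.33, -0.31 and -0.17. Whether copy number or strain background differed between the lines was not tested.

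The same cell types were compared in the other media and times. At 24 h HCM, 1785 genes were higher (11.8%) and 1718 lower (11.4%) in Rescue, and at 72 h LCM 2698 (17.9%) and 2201 (14.6%). These are other libraries of the same cells. Of the calls at 24 h LCM, 2458 were called in the same direction at 24 h HCM, which is 65.5% of the 24 h LCM calls and 70.2% of the 24 h HCM calls, and 1 in the opposite direction. At 72 h LCM 2639 were called in the same direction, 70.3% of the 24 h LCM and 53.9% of the 72 h LCM calls, and 44 in the opposite direction. In all 3 conditions 1948 genes kept their direction, 1074 higher and 874 lower, while 590 (15.7%) were called at 24 h LCM only. The stress list had 12 higher members at 24 h LCM, 9 at 24 h HCM and 15 at 72 h LCM, the cytokine list 16, 16 and 18, and the cell cycle list 16, 12 and 9 lower members. In the cell cycle list, 1 member was higher at 72 h LCM.

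The dependence on calcium was tested as the difference between the Rescue-WT log2 fold changes of 24 h LCM and 24 h HCM. Only 10 genes were called (0.0662%), 8 of them more positive in LCM, with 984 genes at an unadjusted p below 0.05. DESeq2 called 49, and the fit of these 4 groups alone called none. Areg had a Rescue-WT log2 fold change of 4.03 in LCM and 1.88 in HCM, a difference of 2.15 (SE 0.385, adjusted p = 0.0158). In WT it was at 3.86 ± 0.989 CPM in LCM and at 10.6 ± 1.52 CPM in HCM (SD, n = 3), and in Rescue it was at 63.3 ± 17.7 and 39.2 ± 3.41 CPM. Krt15 differed by 2.43 (SE 0.359, adjusted p = 0.00172), since WT lay at 7.03 ± 0.926 CPM in LCM and 41.9 ± 5.27 CPM in HCM while Rescue lay at 34.5 ± 12 and 38.2 ± 5.07 CPM. Aqp5, a water channel, was below 1.2 CPM in every library of both groups in LCM and at 15.4 ± 5.42 CPM in WT and 1.04 ± 0.304 CPM in Rescue in HCM.

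Egr1, an immediate early factor, was at 3.35 ± 0.293 CPM in WT and 9.24 ± 3.3 CPM in Rescue in LCM and at 3.43 ± 0.486 and 2.69 ± 0.255 CPM in HCM, a difference of 1.82 (SE 0.339, adjusted p = 0.0216). Rgma, a guidance molecule and BMP co-receptor, differed by 1.82 with similar levels in LCM and a lower level of Rescue in HCM, 2.3 ± 0.338 against 8.57 ± 1.9 CPM. Areg was not called in this test without WT replicate 1 (adjusted p = 0.0934), without WT replicate 2 (adjusted p = 0.0642) or without Rescue replicate 2 (adjusted p = 0.0908), and Egr1 was not called when any 1 of 5 of the 6 libraries was left out. Rgma was not called without both libraries that stood apart (adjusted p = 0.079).

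Culture time had a wider effect on the comparison. Between 24 h and 72 h LCM the Rescue-WT difference itself differed for 591 genes (3.91%), 198 more positive at 24 h and 393 more positive at 72 h. Of these, 298 were called at 24 h LCM, and 291 were called at 72 h LCM but not at 24 h. Degs2, which hydroxylates ceramides of the epidermal barrier, was at 0.309 ± 0.0429 CPM in WT and 0.522 ± 0.0248 CPM in Rescue at 24 h and at 0.0754 ± 0.0531 and 12 ± 3.36 CPM at 72 h, a difference of -6.45 (SE 0.998, adjusted p = 0.000164). Klk6, an epidermal kallikrein, went from 0.975 ± 0.645 CPM in WT and 0.642 ± 0.193 CPM in Rescue to 0.587 ± 0.394 and 12.3 ± 4.15 CPM. Krt1 had the opposite course, with a difference of 4.59, from a higher level in Rescue at 24 h, which rested largely on Rescue replicate 3, to 7.08 ± 1.32 CPM in WT and 3.46 ± 0.471 CPM in Rescue at 72 h. Without Rescue replicate 3 the difference of Krt1 was 2.79 (adjusted p = 0.000346).

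Gjb6, connexin 30, and Ndrg2 were the remaining genes, with differences of -7.60 and -4.09. Neither was called without WT replicate 1, with adjusted p-values of 0.447 and 0.229. Pkp4 itself had a difference of -0.75 between the times (adjusted p = 0.056), with 41.1 ± 3.16 CPM in WT at 72 h against 71.1 ± 4.53 CPM at 24 h and 8.86 ± 1.3 against 9.14 ± 0.886 CPM in Rescue.

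**Figure D5:**
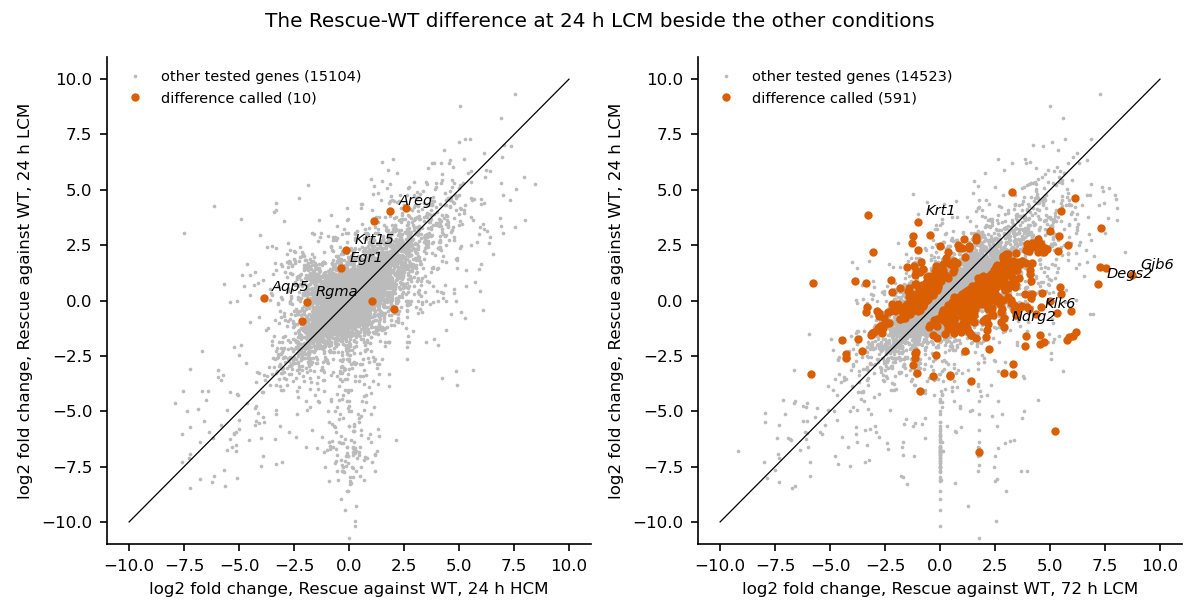
Log2 fold change of Rescue against WT at 24 h LCM (y axis) for every tested gene against that at 24 h HCM (left, x axis) and at 72 h LCM (right, x axis); the line marks equal values, and orange points are genes for which the difference between the conditions was called, 10 on the left and 591 on the right. Areg and Krt15 lie above the line on the left, and Gjb6, Degs2 and Klk6 lie below it on the right.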

How the data were processed

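Poly(A) RNA of murine keratinocytes was sequenced as strand-specific libraries. The authors aligned the read pairs with HISAT2 2.1.0 to mm39 (GRCm39), extended by the transgene's sequence, processed the alignments with SAMtools 1.10 and deposited raw counts per gene from featureCounts 2.0.0 (versions from the submitters' processing notes). Counting by gene splits or drops reads of near-identical copies. No step before the counts was repeated.

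Genes were filtered with filterByExpr, scaled with TMM factors and tested with edgeR 4.0.16 (quasi-likelihood test, R 4.3.3) in 1 model over all 36 libraries, whose 12 group means left 24 residual degrees of freedom. P-values were adjusted after Benjamini and Hochberg over all 15114 tested genes, with a threshold of 0.05. P-values measure the spread between libraries. Folds against groups with 3 counts or fewer in all are ratios of summed CPM with exact 95% intervals, which cover counting error only. Libraries of the same group differed by more than sampling noise, so none was counted as a copy.

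The members, the gene lists and the named genes were chosen with earlier results of these data known. The rule named Pkp4 and GFP-PKP4, the 12 largest increases and decreases (called, protein-coding with a named symbol, no overlap, mean of at least 5 CPM in the higher group), for each list the strongest called member each way and the most abundant one, the 5 most abundant called genes each way and, for each of the 2 tests of a difference between conditions, the 5 largest called differences of protein-coding genes. Up to 4 examples were given for the junction, ROCK, GEF and GAP lists. Some genes of this rule are not reported here. Of the most abundant called genes, those not in the text are given in the closing section.

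The alternatives were DESeq2 1.42.0, no TMM factors, no filter, a minimum of 10 counts per library, a fit of the compared groups alone, the replicate block and each library left out. Chosen after seeing the data were leaving out both WT replicate 1 and Rescue replicate 3, and offsets for gene length. On simulated counts with 200 changed genes among 14062, drawn for this comparison, the recovery was 100% for changes of 2 (log2) and 57.3% for changes of 1, with 8 false calls. The draw gave every gene the same dispersion and, apart from the changes, the same base level in all groups. It held no outlying library and no trend with gene length, so these rates do not carry over to the measured counts. Positions come from GRCm39 annotation, in which 99.7% of tested identifiers were found, and promoter windows from RefSeq on GRCm38.p6, whose coordinates were not mixed with these.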

Additional observations from a re-analysis of the deposited data

Results flagged for a closer look

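The difference between Rescue and WT itself differed between 24 h LCM and 24 h HCM for 10 genes and in LCM between 24 h and 72 h for 591 genes, tested as interactions in the same edgeR model over all genes. The 5 largest differences that the rule names are given for each. Between LCM and HCM they were Aqp5 by 4.02 on the log2 scale, Krt15 by 2.43, Areg by 2.15, Rgma by 1.82 and Egr1 by 1.82, all more positive in LCM. Between the times, Krt1 was more positive at 24 h, by 4.59 (2.79 without Rescue replicate 3), and Gjb6 (-7.60), Degs2 (-6.45), Klk6 (-4.95) and Ndrg2 (-4.09) were more positive at 72 h. Neither Gjb6 nor Ndrg2 was called without WT replicate 1, with edgeR adjusted p-values of 0.447 and 0.229. Groups of 3 libraries are too small for a test of single outlying libraries.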

How the results depend on the processing

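The 3753 calls became 3013 without TMM factors, 4215 with DESeq2, 2919 without the filter, 3220 with at least 10 counts in each library, 3233 with only the compared groups in the fit and 4249 with offsets for gene length. They were 2880 to 3119 when a library was left out, and 2504 without both libraries that stood apart, of which 2296 were kept from the 3753 with their direction. No call changed direction under any alternative, and the targeted gene Pkp4 stayed between -2.88 and -3.11. The 10 calls of the calcium comparison were 49 with DESeq2, 5 without the filter, 0 with only the compared groups, 19 with length offsets and 4 to 9 when a library was left out. The 591 calls of the time comparison were 899 with DESeq2, 394 without the filter, 325 without both libraries that stood apart and 403 to 541 when a library was left out. Of 154 single genes followed that were called, 111 stayed called under every alternative. With the replicate block 3611 genes were called, and 3 of the single genes, Cxcl14, Rpl8 and Thy1, lost their call. Deviations of libraries with the same number correlated at 0.103, -0.236 and -0.163, and those of other pairs ran from -0.306 to 0.352. With 3 libraries in each group, and a library in each standing apart, these values cannot decide whether the numbers mark shared cultures. Causes of these shifts were not tested. Depth limits low genes, since a difference among levels under 0.196 CPM was not detectable.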

Other observations

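Gene lists not described above gave smaller or mixed counts. Of 14 targets of NRF2, which responds to oxidants, 5 were higher and 1 lower, and 3 were higher without WT replicate 1. Without TMM factors 2 were lower. Hmox1, heme oxygenase 1, was at 40.3, 57.1 and 40.9 CPM in WT and 105, 116 and 130 CPM in Rescue, while Gclc, which makes the precursor of glutathione, was lower, at 553, 501 and 595 CPM in WT and 287, 250 and 164 CPM in Rescue. Of 24 genes of TGF-beta, BMP and Wnt signalling, 6 were higher and 4 lower, and 3 were higher without Rescue replicate 3. Among the 6 is Wnt10b, which is not compared. Id2, an inhibitor of bHLH factors, was at 102, 116 and 123 CPM in WT, 18.9, 16.8 and 20.2 CPM in Rescue and 12.6, 26 and 21.2 CPM in PKP4-KO. Both cell types of knockout origin thus lay below WT. Of 15 S100 and barrier defence genes, 2 were higher and 3 lower, with 1 higher without WT replicate 1 and 4 higher with offsets for gene length. Slpi, a protease inhibitor, was at 31.9, 53.7 and 49.6 CPM in WT and 177, 200 and 243 CPM in Rescue. Slc7a11, a cystine transporter, was higher by 1.35 on the log2 scale, and Gsta4 by 0.67, though Gsta4 was not called without WT replicate 1 (adjusted p = 0.0878). Sterol and fatty acid genes had 4 of 20 higher and 1 lower at 24 h LCM and 15 higher at 72 h LCM. The test of the difference between the times called 5 of the 20 (3.91% of all genes), all more positive at 72 h. Elovl6, a fatty acid elongase, was higher at 24 h LCM by 2.14, and Insig1, which was lower by 0.66 (log2 fold change -0.66), lost its call when any 1 of 4 libraries was left out (adjusted p up to 0.19).

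Among the most abundant called genes, Anxa8, an annexin, was at 1318, 1681 and 1562 CPM in WT and 861, 937 and 1007 CPM in Rescue. Sdc1, a heparan sulfate proteoglycan, was at 1039, 1220 and 1144 CPM in WT and 761, 815 and 795 CPM in Rescue. Ftl1, Hsp90ab1, Gsto1 and Rpl8 were higher, with log2 fold changes of 0.77, 0.51, 0.51 and 0.72, and that of Rpl8 was 0.51 without Rescue replicate 3 (adjusted p = 0.24). Rpl8, which has close copies, lost its call with the replicate block (adjusted p = 0.0593) or when any 1 of 5 libraries was left out. Gsto1 lost it without WT replicate 1 (adjusted p = 0.062), and Ftl1 without both libraries that stood apart (adjusted p = 0.0865). Hsp90ab1 lost it without TMM factors (adjusted p = 0.169), without the filter (adjusted p = 0.0533) and without both libraries that stood apart (adjusted p = 0.0684). Tubb4b and Hspa8 were lower, at -0.72 and -0.37, and Hspa8 lost its call when any 1 of 5 libraries was left out (adjusted p up to 0.13). Markers of other cell types were low: Lum, Tyr, Atoh1, Myod1 and Myh3 had no count in any of the 6 libraries. The 10 fibroblast markers summed to 11.9 to 19.1 CPM in WT and 7.33 to 18.8 CPM in Rescue. The Merkel cell and nerve markers summed to 307 to 346 CPM in WT and 198 to 219 CPM in Rescue, most of it from Tubb3. Of the 5 tested Merkel cell and nerve markers 2 were lower, among them Tubb3 (log2 fold change -0.67), and 1 without either library that stood apart. Mlana was higher and Kdr lower, with log2 fold changes of 1.96 and -2.83, at levels under 2 CPM in every library, and Mlana was not called when any 1 of 3 libraries was left out (adjusted p up to 0.154). Twist2, Mitf and Pecam1 were not called.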
